A study of Mus musculus with 4 samples.

Results

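The mitochondrial ribosomal proteins are nuclear-encoded proteins that are imported into mitochondria and built onto the mitochondrial ribosomal RNAs. The ribosome they form translates only the few mRNAs of the mitochondrial genome, all of which encode core subunits of the respiratory chain and the ATP synthase. Its large subunit carries the peptidyl transferase centre and the exit tunnel, and its small subunit binds the mRNA and decodes it. Some of the proteins descend from bacterial ribosomal proteins and others were added during the evolution of mitochondria. In the liver, hepatocytes are rich in mitochondria, and MYC, the driver of the tumours measured here, is known to raise the expression of ribosome and mitochondrial biogenesis genes in many settings.

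The members are the protein-coding genes of the GENCODE M21 annotation whose symbol starts with Mrpl or Mrps followed by a number, without pseudogenes. Of 55487 genes in the deposited table, 78 met that rule, 49 with an Mrpl and 29 with an Mrps symbol, and all 78 passed the filter on low counts. Placed by structure, 51 belong to the large subunit and 26 to the small subunit, because Mrps30 and Mrps18a encode large-subunit proteins despite their symbols. The remaining gene, Mrps36, encodes a protein now assigned to the 2-oxoglutarate dehydrogenase complex. The genes lie on 17 chromosomes, with 11 of them on chromosome 11 and 8 on chromosome 17.

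Bulk hepatocellular carcinoma tissue of 4 mice was measured by mRNA sequencing. The series title gives the mice as Alb-cre H11-myc, a Cre driven by the albumin promoter, which is active in the hepatocyte lineage, together with a Myc allele, and the tumours arise spontaneously under c-Myc. Of the 4 libraries, 2 were labelled wild type and 2 Tfrc knockout, in which the transferrin receptor gene Tfrc was deleted conditionally in the liver. The labels give no age, record no treatment and do not state the Tfrc and Cre alleles of the wild type mice. In bulk tissue fewer cells of a type and less RNA per cell cannot be told apart.

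Total counts were between 15918349 and 17052943 per library. Tfrc had 8441 and 3603 counts in wild type 1 and 2, and 5407 and 3244 counts in knockout 1 and 2, so the groups overlapped (log2 fold change -0.37, SE 0.45, edgeR quasi-likelihood adjusted p = 0.833; log2 fold change 0.16 without wild type 1). The count covers the whole gene and all cells of the tumour, so it did not check the labels, and directions are given throughout for libraries as labelled. The Myc level was 69.7 ± 13.8 CPM for wild type and 70.0 ± 23.2 CPM for knockout libraries (SD, n = 2 each). Wild type 2 stood apart on the first principal component (48.2% of the variance), with 86.6 against -11.2 for wild type 1 and -37.0 and -38.5 for knockout 1 and 2. On the second component wild type 1 was farthest out, at -66.7. Wild type 2 was at 14.5 there, and knockout 1 and 2 were at 3.1 and 49.1. The summed level of 8 hepatocyte markers ran from 13420 CPM in wild type 1 to 45718 CPM in wild type 2, with 34738 and 32180 CPM in knockout 1 and 2, and every marker was detected in each library. The 8 macrophage and Kupffer cell markers summed to 704 and 1031 CPM in wild type and 392 and 259 CPM in the libraries labelled knockout. Of these, Clec4f, a defining Kupffer cell marker, had 0 counts in wild type 1 and 917 in wild type 2, and 13 and 143 in knockout 1 and 2. Erythroid markers summed to 956 and 2172 CPM in wild type and 212 and 150.3 CPM in the libraries labelled knockout. All 5 erythroid, all 6 neutrophil, 5 of 6 endothelial, 7 of 8 stellate and fibroblast and all 8 macrophage markers were negative. Positive log2 fold changes were found for 6 of 8 hepatocyte, 6 of 8 T cell and 3 of 4 tested B and plasma cell markers. Of 8 immediate early genes 7 were positive, and of 4 tested bile duct markers 1 was. Neutrophil markers had 463 and 1038 counts in wild type against 227 and 235, endothelial sums were 133 and 145 against 95.9 and 75.6 CPM, and stellate and fibroblast sums 1406 and 1207 against 632 and 1145 CPM. Immediate early genes summed to 919 CPM in knockout 2 and to 388 to 507 CPM in the other libraries. The part of these differences in the results below was not tested.

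Promoters of 69 of the 78 genes were in the RefSeq table (build GRCm38.p6, 250 bases before to 50 bases after the start). Those of 4 are shown: Mrpl14, Mrps18a and Mrpl44 of the large and Mrps12 of the small subunit. These genes had the smallest p of their subunit among members lower in the libraries labelled knockout without overlap between the groups. Capitals mark matches, on either strand, to CCGGAAG (the core bound by GABPA and other ETS factors), the NRF1 motif (GCGCA, any base, GCGC) or AAGATGGCG (the site of YY1).
Mrpl14, chr17:45686099-45686398, plus strand: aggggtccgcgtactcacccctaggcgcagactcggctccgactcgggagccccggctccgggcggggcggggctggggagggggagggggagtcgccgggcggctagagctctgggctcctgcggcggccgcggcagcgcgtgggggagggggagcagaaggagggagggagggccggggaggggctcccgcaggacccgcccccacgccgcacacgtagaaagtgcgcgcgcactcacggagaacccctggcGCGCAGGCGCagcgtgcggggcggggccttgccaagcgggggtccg
Mrps18a, chr17:46110754-46111053, plus strand: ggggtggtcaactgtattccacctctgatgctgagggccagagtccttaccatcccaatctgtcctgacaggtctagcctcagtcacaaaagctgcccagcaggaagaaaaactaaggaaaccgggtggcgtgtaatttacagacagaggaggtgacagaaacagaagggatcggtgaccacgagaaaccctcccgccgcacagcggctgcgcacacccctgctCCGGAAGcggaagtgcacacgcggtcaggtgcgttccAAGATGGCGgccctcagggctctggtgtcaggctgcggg
Mrpl44, chr1:79775768-79776067, plus strand: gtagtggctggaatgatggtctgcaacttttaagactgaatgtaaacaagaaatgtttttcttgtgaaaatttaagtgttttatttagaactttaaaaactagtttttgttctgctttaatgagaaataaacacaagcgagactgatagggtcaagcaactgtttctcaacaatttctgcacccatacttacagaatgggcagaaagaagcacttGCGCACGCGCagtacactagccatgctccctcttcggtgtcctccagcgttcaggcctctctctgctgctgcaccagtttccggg
Mrps12, chr7:28741772-28742071, minus strand: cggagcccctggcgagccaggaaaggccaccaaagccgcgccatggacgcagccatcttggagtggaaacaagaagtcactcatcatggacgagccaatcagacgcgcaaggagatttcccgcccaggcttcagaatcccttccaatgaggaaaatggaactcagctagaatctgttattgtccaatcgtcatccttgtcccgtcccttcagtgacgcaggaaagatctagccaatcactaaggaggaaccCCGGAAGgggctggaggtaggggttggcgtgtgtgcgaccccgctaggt

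These motifs, which are known from promoters of nuclear genes for mitochondrial proteins, were found in more of the member windows than of the other windows, which was not tested. CCGGAAG was in 26 of 69 member promoters (37.7%), in 18.8% of the 11152 promoters of tested genes in the table and in 9.9% of all 27025 genes with a window. The NRF1 motif was in 13 (18.8%, against 10.5% and 5.2%), and AAGATGGCG in 8 (11.6%, against 3.3% and 1.6%). The E-box CACGTG, the letters bound by MYC with MAX, was in 5 member promoters (7.2%), against 11.5% of tested genes and 8.1% of all genes. Matches to AAGATGGCG had their first base at a median position of 18.5 from the start, and those to CCGGAAG at -17.0. The window of Mrps18a shows both, CCGGAAG upstream and AAGATGGCG downstream. None of these 4 motifs was found in 26 of the 69 windows, among them that of Mrps10, whereas all 4 printed windows hold a match. The printed Mrpl14 and Mrpl44 windows hold only NRF1 matches.

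Per unit length, the genes differed widely in level although their proteins are built into the same particle. Mean FPKM over the 4 libraries had a median of 16.2 over the 78 genes, with quartiles of 9.23 and 28.1. Mrpl12, which encodes the stalk protein that recruits translation factors, had the highest level, with 126 and 205 FPKM in wild type 1 and 2 and 128 and 92.5 FPKM in knockout 1 and 2. It was followed by Mrpl34, a short large-subunit protein with a bacterial homologue, at 103 ± 21.2 FPKM (SD over 4 libraries), and by Mrps28, a small-subunit protein, at 78.6 ± 9.43 FPKM. The ranges over libraries of Mrpl12 and Mrpl34 overlapped, and so did those of Mrpl34 and Mrps28. Mrpl34 had 80.0 and 127 FPKM in wild type 1 and 2 and 114 and 92.5 FPKM in knockout 1 and 2. It thus lay below Mrpl12 within every library but knockout 2, where they were nearly equal. Differences between these neighbours were not tested. At the low end stood Mrpl23, a protein of the exit tunnel, at 3.02 ± 0.686 FPKM and Mrpl48, of the central protuberance, at 2.03 ± 0.763 FPKM. Mrpl12 was thus 67.8-fold above Mrpl48 in FPKM.

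**Figure D1:**
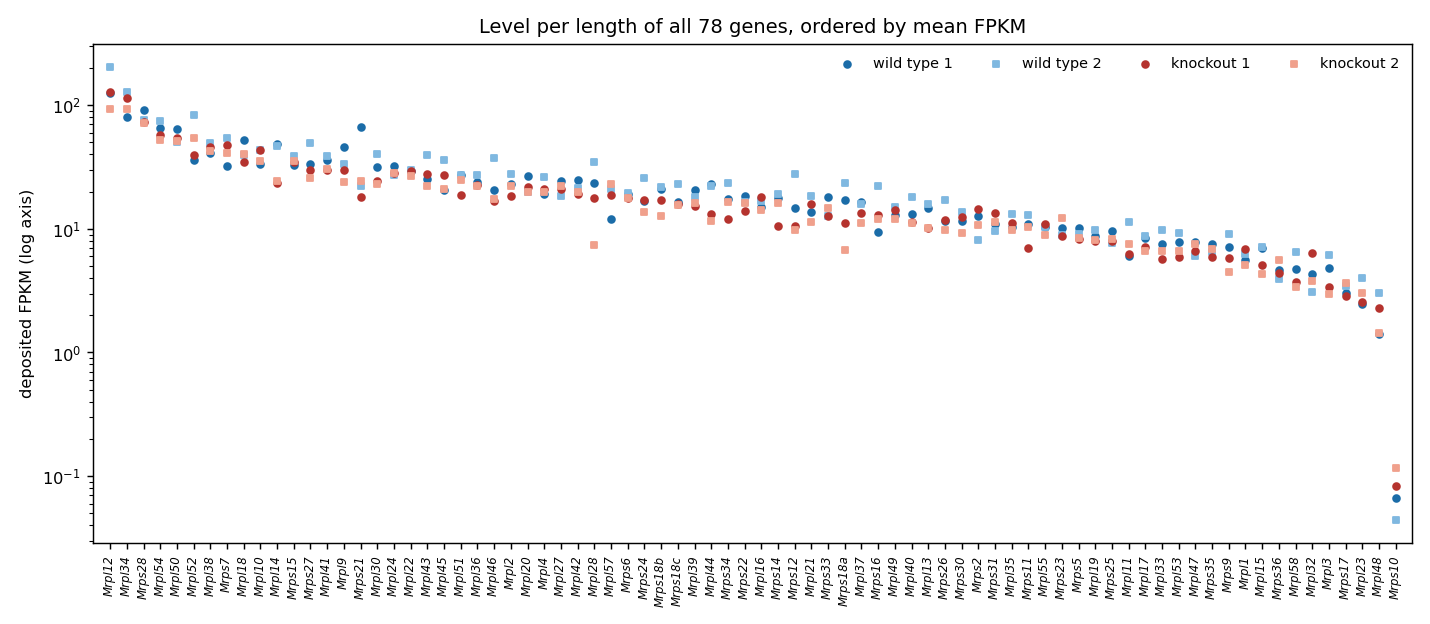
Deposited FPKM on a log axis for each of the 78 genes in each of the 4 libraries, ordered by the mean FPKM over libraries. Mrpl12 leads at a mean of 138 FPKM, the median gene is at 16.2 FPKM, and Mrps10 lies alone at 0.0777 FPKM.

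Mrps10 stood apart from all other members. The gene (chromosome 17, 47368887 to 47381417, mm10) encodes a small-subunit protein with a bacterial homologue, and it was counted 13 and 9 times in wild type 1 and 2 and 16 and 23 times in knockout 1 and 2. The next lowest member in any library, Mrpl53 in knockout 1, had 133 counts. A processed pseudogene on the same chromosome, AC154457.3, is 97.9% identical to Mrps10 over 573 bases, and it was counted 228 and 161 times in wild type 1 and 2 and 176 and 139 times in knockout 1 and 2. Summed, the pseudogene held 704 counts against 61 for Mrps10, so the level of Mrps10 is uncertain. The sources used here do not state how reads matching both were assigned.

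Near-identical pseudogenes touched other members as well. At an identity of at least 95% over at least 200 bases and 30% of a transcript, 13 members had 17 pseudogene copies, and for 7 members the copies held more than 10% of the member's own counts. Mrpl23-ps1, identical to Mrpl23 over 540 bases, had 2272 counts against 1278 for Mrpl23, and 2 copies of Mrps36 had 621 and 261 counts against 804. The copy of Mrps18b, Gm13552, had 920 counts against 4205. Levels of Mrpl23, Mrps36, Mrpl48 and Mrps18b are therefore uncertain, as are those of Mrpl22 and Mrps21, whose copies held 11.7% and 11.6% of their counts. The FPKM of the authors also divided by the summed length of all distinct annotated exons, overlapping ones included, which matched for all 78 members. That length exceeded the non-overlapping exonic length by a median of 1.4 times and by up to 2.73 times, so members with many annotated isoforms are listed too low. With counts per non-overlapping exonic kilobase the order was similar across the genes (Spearman's rho 0.95 over 78 genes, which share the same libraries), Mrpl12 remained first and Mrps10, Mrpl48 and Mrpl23 remained last, while Mrpl52 moved from place 6 to place 2.

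Overlap with other genes was common. The spans of 42 members overlapped another annotated gene, and the exons of 33 members overlapped another gene's exons. Mrpl46 and Mrps11, one of each subunit, lie on opposite strands and share 173 exonic bases. Mrps25 shares 4590 exonic bases with Nr2c2. Whether counting used strand is not stated, so in such stretches the genes cannot be told apart.

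The study addresses how Tfrc affects the microenvironment of the tumour. The mitoribosomal protein genes were mostly at a slightly lower level in the libraries labelled knockout, and 0 of them passed the adjusted threshold. Of the 78 genes, 64 had a negative log2 fold change, against 49.6% of all 16310 tested genes, and the median was -0.27 (0.830-fold), against 0.01 over all tested genes. By edgeR's quasi-likelihood test 0 members passed an adjusted p of 0.05, where 0% of all tested genes did, and the smallest adjusted p among the members was 0.547. DESeq2 called 0 members as well (0.907% of all genes) and limma-voom 0, where it called 1 of all 16310 tested genes. At an unadjusted p under 0.05 there were 5 lower members (Mrpl14, Mrps18a, Mrpl44, Mrpl28 and Mrps12), against 4.35% of all tested genes, and 0 higher members, against 3.95%. Both knockout libraries lay below both wild type libraries for 29 members, against 20.1% of all tested genes, and above both for 2, against 21.9%. The 95% intervals of 31 members lay within a 2-fold change in either direction, those of 41 reached past a 2-fold decrease and those of 6 past a 2-fold increase. Over the 36 members whose span overlaps no other gene the median was -0.13.

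On the TMM scale that direction rested on 1 library. Summed over the 78 genes, the TMM-scaled level was 4613 and 6585 CPM in wild type 1 and 2 and 4496 and 4478 CPM in knockout 1 and 2. Wild type 2 was therefore alone, and wild type 1 lay close to the libraries labelled knockout. Of the 78 genes, 62 were highest in wild type 2, against 31.4% of all tested genes. Without wild type 2 the median was -0.014 and 41 of 78 fold changes were negative, against 47.6% of all genes in that fit, with 4 members lower (5.17% of all genes) and 1 higher (5.8%) at an unadjusted p under 0.05. In the fit of all libraries and in each with 1 library left out, 41 members were negative and 5 positive throughout, and 32 turned sign. These fits share libraries, and the matching shares over all tested genes were not computed. Without wild type 1 the median was -0.52 and 70 fold changes were negative, against 48.2% of all genes. At an unadjusted p under 0.05, 27 members were then lower (11.4% of all genes) and 0 higher (12.6%), and Mrps12 and Mrps18a passed downward (edgeR adjusted p = 0.0308 and 0.0445), where 1.17% of all genes did.

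The position of wild type 1 also moved with the scaling. As a raw share of all counts the members took 0.516% and 0.594% in wild type 1 and 2 and 0.458% and 0.432% in knockout 1 and 2, and on that scale the groups did not overlap. The 95% Wilson intervals of these shares were 0.513% to 0.519%, 0.591% to 0.598%, 0.455% to 0.461% and 0.429% to 0.436%, and they cover counting error only. The TMM factor of wild type 1 was 1.12, against 0.905 to 1.02 for the other libraries. On the TMM scale both knockout libraries were below wild type 1 for 31 members and above it for 27, while in the deposited FPKM, scaled to library totals, they were below it for 47 and above it for 15. All tested genes moved the same way between these scales, from 35.7% to 48.3% below wild type 1 and from 37.2% to 26.2% above it. In the deposited FPKM both knockout libraries lay below both wild type libraries for 37 members, against 21.4% of all tested genes. They lay above both for 2 members, a smaller share than over all tested genes. Genes of the mitochondrial genome took 8.69% and 4.13% of counts in wild type 1 and 2 and 9.80% and 16.6% in knockout 1 and 2. With those genes left out before scaling the median over the members was -0.29.

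**Figure D2:**
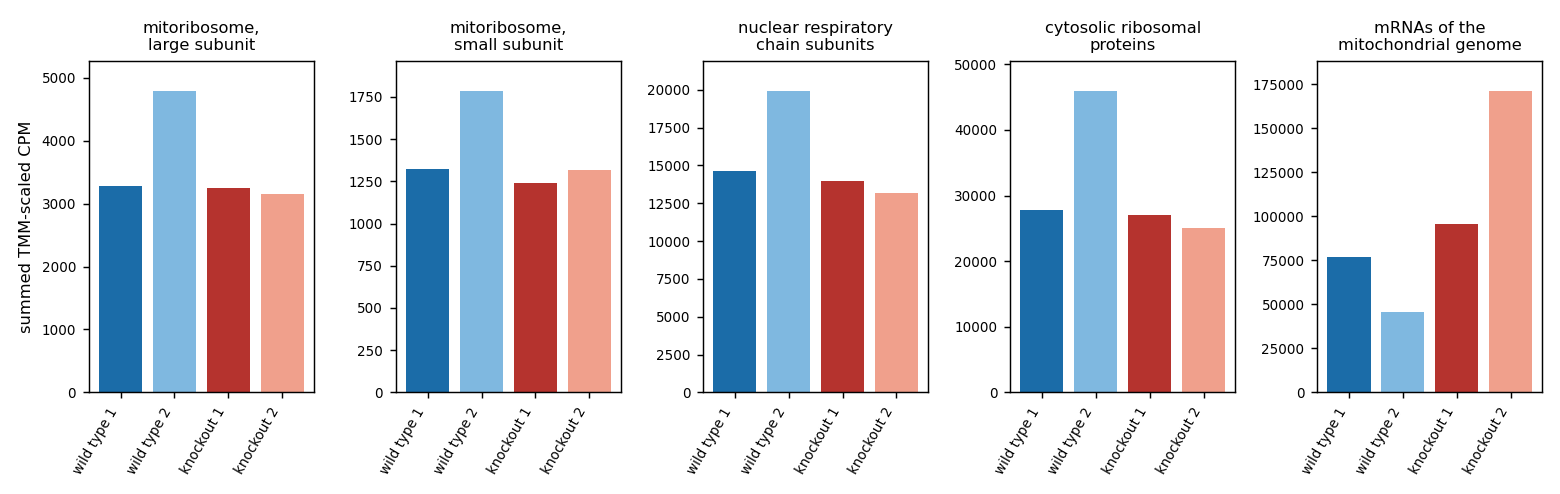
Summed TMM-scaled CPM in each of the 4 libraries for 5 gene groups, each panel with its own axis from 0. In both mitoribosomal subunits wild type 2 is highest and the other 3 libraries are close together, at 3147 to 3278 CPM for the large and 1241 to 1324 CPM for the small subunit.

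By subunit and origin, most genes of each class were negative with all libraries. The large subunit had 44 of 51 negative fold changes with a median of -0.28, and the small subunit 20 of 26 with a median of -0.19. Among large-subunit genes, those with bacterial homologues had 24 of 30 negative and a median of -0.21, and the mitochondria-specific ones 20 of 21 and -0.30. In the small subunit the corresponding medians were -0.27 over 16 genes and -0.16 over 10 genes. Differences between these classes were not tested, and without wild type 2 their medians were 0.02, -0.08, 0.06 and -0.07, with 14 of 30, 13 of 21, 7 of 16 and 7 of 10 genes negative, so that those of the bacterial homologues were then above 0 and those of the mitochondria-specific genes below it. The ratio of summed large-subunit to small-subunit FPKM was 2.40 and 2.79 in wild type 1 and 2 and 2.70 and 2.47 in knockout 1 and 2, so the groups overlapped. By place in the ribosome, 8 of 9 genes of the polypeptide exit tunnel and 8 of 9 of the central protuberance were negative, with medians of -0.24 and -0.30. Without wild type 2, 4 of 9 genes in each of these lists were negative and the medians turned to 0.033 and 0.0036.

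**Figure D3:**
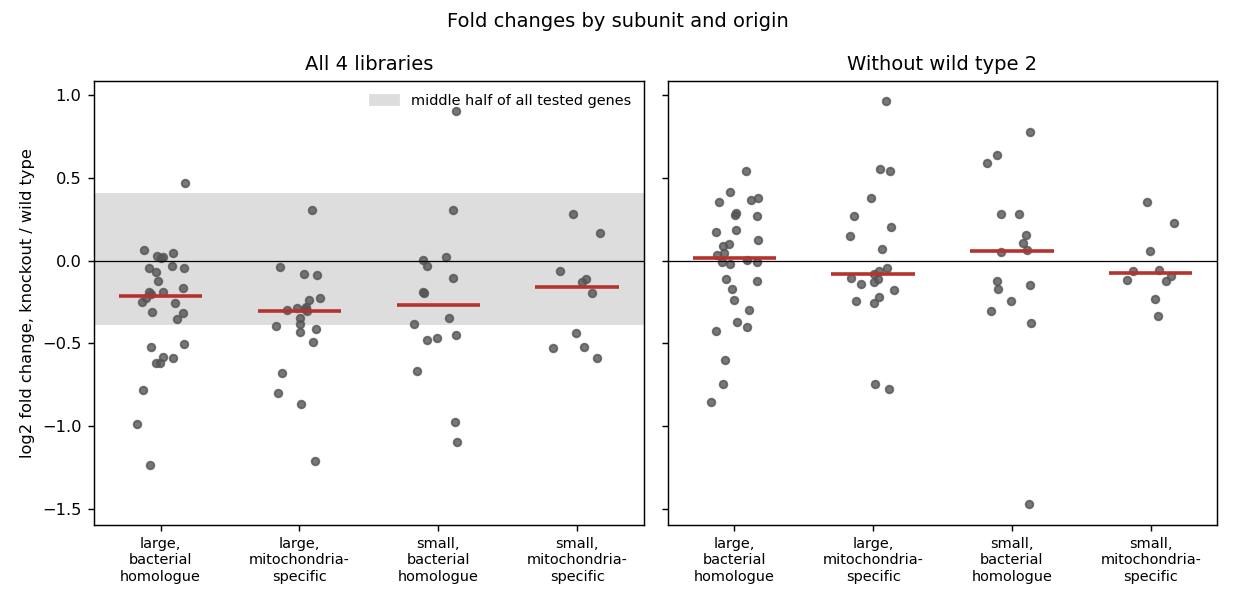
Log2 fold change of knockout against wild type for each gene (points) by subunit and origin, with the class median as a red line, in the fit of all 4 libraries and in the fit without wild type 2. The grey band spans the quartiles of all tested genes in the 4-library fit. With all libraries the medians run from -0.30 to -0.16, and without wild type 2 from -0.08 to 0.06.

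In the large subunit, 6 genes had the smallest p among those whose libraries did not overlap, all lower in the libraries labelled knockout. Mrpl14 (ENSMUSG00000023939, chromosome 17, 45686322 to 45698495, mm10), whose protein lies at the interface with the small subunit, had 69.5 and 82.7 CPM in wild type 1 and 2 and 36.5 and 40.3 CPM in knockout 1 and 2. The wild type libraries were close to each other, and both stood well above both knockout libraries. Its log2 fold change was -0.99 (SE 0.29, edgeR adjusted p = 0.547) and stayed between -1.14 and -0.86 whichever library was left out. Mrpl14 overlaps Tmem63b on the opposite strand by 106 exonic bases, and Tmem63b was itself counted 2059 and 2150 times in wild type and 1492 and 1241 times in knockout.

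Mrpl44 (chromosome 1, 79776018 to 79781445, mm10), a mitochondria-specific protein with a ribonuclease III-like fold, showed a like pattern, with 48.0 and 56.4 CPM in wild type 1 and 2 and 29.7 and 27.6 CPM in knockout 1 and 2. The libraries within each group were again close, and the log2 fold change was -0.87 (SE 0.29, adjusted p = 0.548), between -1.02 and -0.75 with a library left out. Mrpl44 overlaps Wdfy1 on the opposite strand by 126 exonic bases. Mrpl14 and Mrpl44 thus had lower values that did not rest on wild type 2. Both were picked by their p, a choice that favours genes with close libraries within each group. Mrpl28, a homologue of a bacterial large-subunit protein, had 67.6 and 122 CPM in wild type and 56.1 and 24.5 CPM in knockout 1 and 2. Its libraries spread widely in both groups, so that the log2 fold change of -1.23 (SE 0.49) moved to -0.75 without wild type 2, -0.76 without knockout 2, -1.64 without wild type 1 and -1.99 without knockout 1. Mrpl3, a homologue of a bacterial protein near the peptidyl transferase centre, had 41.3 and 64.6 CPM in wild type against 31.9 and 29.6 CPM, a log2 fold change of -0.78 that was -0.43 without wild type 2. For Mrpl15, which also has a bacterial homologue, the values were 79.1 and 100.8 CPM against 63.5 and 56.1 CPM, with a log2 fold change of -0.59.

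The S18 family is a set of paralogs that in mammals were divided among the subunits: Mrps18a encodes a large-subunit protein, and Mrps18b and Mrps18c encode small-subunit proteins. Only Mrps18c is counted here among those with a bacterial homologue, after the structural nomenclature. Mrps18a (chromosome 17, 46110986 to 46128910, mm10) had 82.0 and 140.0 CPM in wild type 1 and 2 and 58.4 and 37.4 CPM in knockout 1 and 2. Every wild type library was above every knockout library, and the log2 fold change was -1.21 (SE 0.39, adjusted p = 0.547), which moved to -0.78 without wild type 2. Mrps18b had 66.3 and 84.5 CPM against 59.0 and 46.2 CPM (log2 fold change -0.52, and -0.33 without wild type 2), also without overlap. Mrps18c had 31.7 and 55.4 CPM against 33.7 and 34.7 CPM (log2 fold change -0.35, and 0.11 without wild type 2), and here wild type 1 was the lowest library. The intervals of the 3 fold changes overlapped, at -2.14 to -0.29, -1.25 to 0.21 and -1.19 to 0.50, and the differences between the paralogs were not tested.

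In the small subunit, Mrps12, whose bacterial homologue sits in the decoding centre, had the smallest p. It had 32.5 and 74.6 CPM in wild type 1 and 2 and 25.2 and 24.7 CPM in knockout 1 and 2, so the knockout libraries were almost equal while the wild type ones differed by more than 2-fold. The log2 fold change was -1.10 (SE 0.43, adjusted p = 0.591), -0.38 without wild type 2 and -1.62 without wild type 1. Mrps9, whose bacterial homologue reaches towards the tRNA in the peptidyl site, had 50.4 and 79.5 CPM against 45.0 and 36.8 CPM (log2 fold change -0.67, and -0.30 without wild type 2). Mrps27, a pentatricopeptide repeat protein that binds RNA, had 68.2 and 124 CPM against 67.4 and 60.7 CPM, so wild type 1 and knockout 1 were nearly equal (log2 fold change -0.59, and -0.09 without wild type 2). Mrps28 and Mrps5 separated the groups by little, with 64.6 and 66.5 against 56.7 and 58.0 CPM for Mrps28 and 78.6 and 85.9 against 69.6 and 74.7 CPM for Mrps5, and log2 fold changes of -0.19 each.

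For only 2 members were the knockout libraries both higher than either wild type library. Mrps31, a mitochondria-specific small-subunit protein, had 34.5 and 38.0 CPM in wild type 1 and 2 and 46.5 and 41.8 CPM in knockout 1 and 2 (log2 fold change 0.28, SE 0.29, adjusted p = 0.793). The other was Mrps10, at the few counts given above (log2 fold change 0.90, SE 0.66, adjusted p = 0.712), while the counts of its pseudogene were highest in wild type 1.

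**Figure D4:**
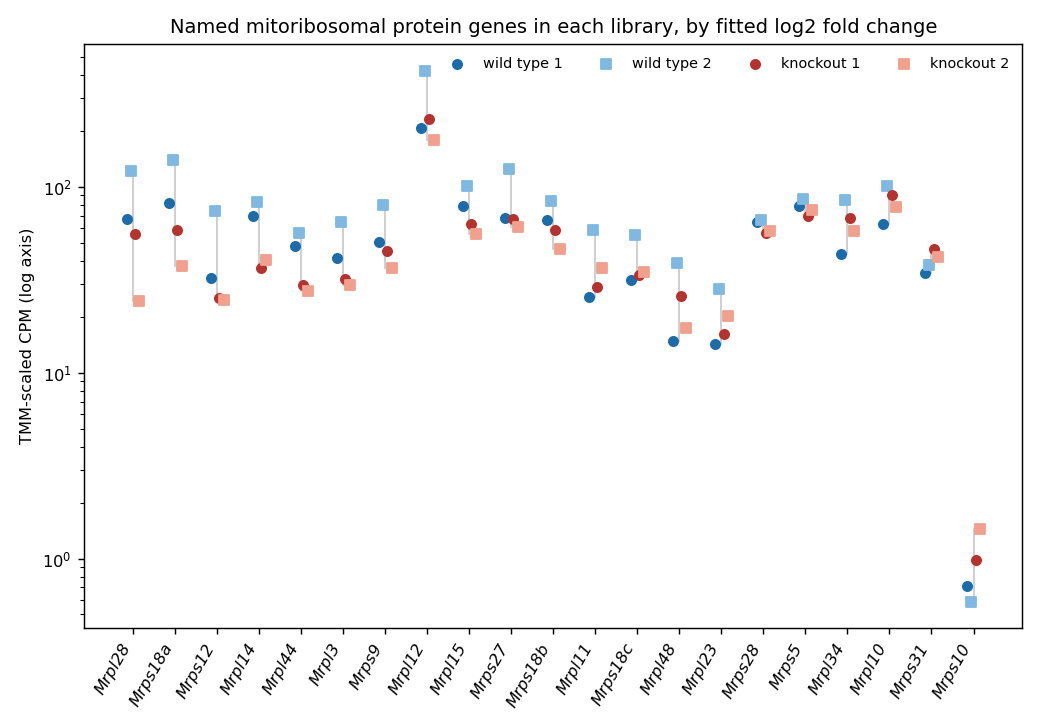
TMM-scaled CPM on a log axis of the 21 members named by rule in each of the 4 libraries, ordered by fitted log2 fold change from lowest to highest. Grey lines span the libraries. Mrpl14 and Mrpl44 have both wild type libraries close together above both knockout libraries, whereas Mrps12 and Mrps27 have wild type 2 alone at the top.

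The stalk, the flexible arm that recruits translation factors, is formed by Mrpl12 on a base of Mrpl10 and Mrpl11. Mrpl12 had 209 and 423 CPM in wild type 1 and 2 and 233 and 178 CPM in knockout 1 and 2. Mrpl11 had 25.5 and 58.6 CPM against 28.9 and 36.8 CPM, and Mrpl10 had 62.8 and 101.6 CPM against 90.5 and 77.6 CPM. All 3 were highest in wild type 2 and had wild type 1 lowest or next to lowest, and their log2 fold changes were -0.62, -0.35 and 0.03. Without wild type 2 they were -0.02, 0.37 and 0.42. Of the remaining members named for their level, Mrpl34, Mrpl48 and Mrpl23 had log2 fold changes of -0.03, -0.30 and -0.22, which were 0.54, 0.56 and 0.35 without wild type 2.

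Within the wild type group the members moved mostly together. Of 78 genes, 67 were higher in wild type 2 than in wild type 1, against 48.1% of all tested genes, with a median log2 ratio of 0.49 against -0.03. Between knockout 2 and knockout 1 the median log2 ratio was -0.01, with 38 genes higher in knockout 2. Over 2-fold differences between the wild type libraries were found in 11 of the 78 members. Of these, 10 were higher in wild type 2, as were 8.08% of all tested genes. Between the knockout libraries 1 member, Mrpl28, differed over 2-fold. The following genes were chosen after their values were seen. Mrps16 and Mrpl52 had the largest ratios, at log2 values of 1.55 for Mrps16 and 1.53 for Mrpl52, wild type 2 being the higher. Mrps21 went the other way, at 95.5 and 39.6 CPM in wild type 1 and 2 against 28.4 and 40.4 CPM in knockout 1 and 2, and was the only member more than 2-fold higher in wild type 1.

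**Figure D5:**
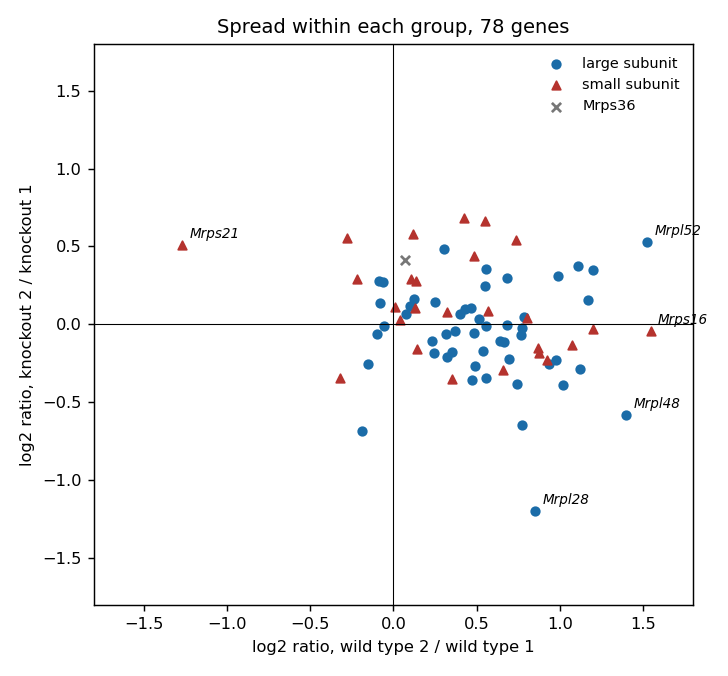
For each of the 78 genes, the log2 ratio of wild type 2 to wild type 1 (horizontal) against the log2 ratio of knockout 2 to knockout 1 (vertical), both from TMM-scaled CPM, with large-subunit genes as circles and small-subunit genes as triangles. Most points lie to the right of 0, with a median of 0.49, while the vertical median is -0.01.

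Mitoribosomal proteins that carry other symbols followed the members. The 5 genes are Dap3, a GTP-binding small-subunit protein, Chchd1 and Aurkaip1 of the small subunit, Ptcd3, a pentatricopeptide repeat protein of the small subunit, and Gadd45gip1 of the large subunit. All 5 had a negative log2 fold change (median -0.29), and 0 passed the threshold (0% of all tested genes). Dap3 had 95.6 and 117.6 CPM in wild type 1 and 2 and 87.8 and 86.2 CPM in knockout 1 and 2, which did not overlap. Chchd1 had 30.9 and 131 CPM against 53.3 and 41.0 CPM, the widest spread between wild type libraries of these 5. The other 3 overlapped between groups, with log2 fold changes of -0.17 for Aurkaip1, -0.06 for Ptcd3 and -0.40 for Gadd45gip1. Without wild type 2 the median was 0.12, and the values were 0.61 for Chchd1, 0.21 for Gadd45gip1 and 0.12 for Aurkaip1.

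Genes that build or run the mitoribosome had medians closer to 0 with all libraries. Of 27 assembly genes 26 were tested, 17 were negative and the median was -0.14. It was 0.067 without wild type 2, with 11 of 26 negative. With all libraries 0 passed the adjusted threshold by edgeR (0% of all tested genes). At an unadjusted p under 0.05, 1 was higher (3.95% of all tested genes) and 0 lower (4.35%). Mrm1, a methyltransferase of the large rRNA, had 3.59 and 4.94 CPM in wild type 1 and 2 and 8.33 and 9.71 CPM in knockout 1 and 2 (log2 fold change 1.08, SE 0.43, adjusted p = 0.591). Mrm2, another methyltransferase of that rRNA, had 13.7 and 27.9 against 10.9 and 10.7 CPM, and Fastkd2, an RNA-binding protein of large-subunit assembly, had 34.9 and 53.1 against 28.3 and 22.8 CPM. Mrm1 thus lay above and Mrm2 and Fastkd2 below the wild type libraries. Their log2 fold changes were -0.94 for Mrm2 and -0.79 for Fastkd2, and -0.34 and -0.45 without wild type 2. Among 15 translation factors 8 were negative with a median of -0.07, and 0 passed (0% of all tested genes). In the fit without wild type 2, 3 of 15 were negative, against 47.6% of all genes in that fit, and the median was 0.16. Tufm, the elongation factor that delivers aminoacyl-tRNA, had 56.9 and 135 CPM in wild type and 69.5 and 51.8 CPM in knockout 1 and 2. Guf1, a GTPase that acts on the elongating ribosome, was above both wild type libraries (22.9 and 26.7 against 33.1 and 36.1 CPM), and Mrrf, the ribosome recycling factor, overlapped between the groups with a log2 fold change of -0.53, which was 0.03 without wild type 2.

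The counts of the rRNA and mRNA partners did not follow the pattern of the protein genes across libraries. The small rRNA gene mt-Rnr1 had 161 and 132 CPM in wild type 1 and 2 and 184 and 406 CPM in knockout 1 and 2, and the large rRNA gene mt-Rnr2 had 413 and 128 CPM against 162 and 449 CPM. Wild type 2, the highest library for the protein genes, was the lowest for both rRNAs. The rRNAs together took 0.0642% and 0.0235% of counts in wild type 1 and 2 and 0.0353% and 0.0826% in knockout 1 and 2. As mRNA was sequenced, whether these few counts follow the rRNA levels was not tested. All 13 mRNAs of the mitochondrial genome had a positive log2 fold change (median 1.09), and their summed level was 76900 and 45410 CPM in wild type 1 and 2 and 95719 and 171053 CPM in knockout 1 and 2. By edgeR 0 of these 13 passed (0% of all tested genes), 2 were higher at an unadjusted p under 0.05 (3.95% of all), and DESeq2 called 2 (0.907% of all). The median was 0.59 without knockout 2, with 1 of 13 then negative. It was 0.67 without wild type 2, 1.43 without knockout 1 and 1.54 without wild type 1. Nuclear copies of mitochondrial genes make these counts uncertain.

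Other groups of widely expressed genes had medians of like size. Of 80 tested nuclear subunits of the respiratory chain, 69 were negative with a median of -0.34, and of 79 cytosolic ribosomal proteins, 66 were negative with a median of -0.32. Without wild type 2 these medians were -0.06 and 0.00. The summed level of the mitoribosomal genes relative to that of the nuclear chain subunits was 0.316 and 0.331 in wild type 1 and 2 and 0.321 and 0.339 in knockout 1 and 2, which overlapped between the groups. Relative to cytosolic ribosomal proteins it was 0.166 and 0.143 in wild type and 0.166 and 0.179 in knockout 1 and 2.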

How the data were processed

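The authors deposited 1 table of raw counts and FPKM per gene for 4 libraries, per the file headers. The submitters' processing notes name the mm10 build and list edgeR, StringTie, HISAT2 and SAMtools 1.3.1 without roles. The deposited FPKM equalled the counts scaled by library total and a fixed gene length for 100% of 14371 genes with at least 10 counts in each library (tolerance 1%). FPKM was used for levels between genes, for the large to small subunit ratio and, as scaling to library totals, for a comparison of libraries, never for a test. Symbols came from GENCODE M21, which matched 55227 identifiers.

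The counts were filtered with edgeR's filterByExpr (16310 genes), scaled by TMM and tested two-sided with edgeR 4.0.16 (quasi-likelihood F test, R 4.3.3). P-values were adjusted by Benjamini-Hochberg across the whole table, with a threshold of 0.05. They set the group difference against the spread between these mice, which edgeR estimates with information shared across genes. The smallest p of an exact permutation test with 2 libraries a group is 0.333. Alternatives were other scalings and filters, DESeq2 1.42.0, limma-voom (limma 3.58.1), a replicate block, and leaving out libraries, mitochondrial genome genes or overlapping members. Leaving out a library leaves 1 in its group, whose spread is then taken from the other group. Pseudogene copies were found with blastn 2.17.0+, and motifs by letter matches on both strands.

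Members and lists were chosen with earlier results of these data known. Named members were, per subunit and direction, up to 6 with the smallest p whose libraries did not overlap, the 3 highest and 3 lowest by FPKM, any called, the Mrps18 paralogs and the stalk. Up to 3 genes were named per other list.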

Additional observations from a re-analysis of the deposited data

How the results depend on the processing

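The median log2 fold change of the 78 genes lay between -0.31 and -0.21 under the other scalings, filters and tools (-0.13 without members that overlap another gene), and the count of members past an adjusted p of 0.05 was 0 in each of them. With a library left out, that count ran from 0 to 2, the count lower at an unadjusted p under 0.05 from 0 to 27 and the count higher from 0 to 1, against 5 and 0 with all libraries. The medians then ran from -0.52 to -0.014 for all members, from -0.53 to -0.0079 for the large and from -0.31 to -0.06 for the small subunit. With a library left out, the counts under an unadjusted p of 0.05 also moved over all tested genes. Their ranges therefore do not reflect the members alone. The count of 5 lower members was 3 with no filter on low counts. It was 2 of the 36 members whose span overlaps no other gene, against 4.35% of all tested genes. Of the 21 named members, 6 turned sign with a library left out. With the other settings 164 of 167 values kept their sign. The labels do not state whether equal replicate numbers mark pairs. The correlation of deviations from the group mean between wild type 1 and knockout 1 was 0.12. With 2 libraries a group this value has no reference, so it cannot decide on a pairing. The replicate block gave 0 members past the threshold, 5 lower members (637 of 16310 tested genes) and a median of -0.22. With 2 mice per group the SEs of the members lay between 0.28 and 0.66, and only Mrps10 had under 100 counts in a library.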
